A study of Mus musculus with 6 samples.

Results

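The 10 genes described here carry glucose into cardiomyocytes (CMs) and down to lactate: the transporters *Slc2a1* and *Slc2a4*, the hexokinases *Hk1* and *Hk2*, the phosphofructokinases *Pfkm* and *Pfkp*, the aldolase *Aldoa*, the pyruvate kinase *Pkm*, and the lactate dehydrogenases *Ldha* and *Ldhb*. They were chosen by symbol, because at several steps they pair an isoform of the fetal heart with one of the adult heart. The rule uses no measured value, but the choice was made with earlier results of these data known. Their symbols matched 11 of the 54532 rows of the count table, since *Aldoa* names 2 Ensembl genes in GENCODE M21. All 11 rows passed the filter on low counts, which required a median log2 CPM (reads of a gene scaled to the total of its library) over 1 in at least 1 group and kept 13323 genes, and the second *Aldoa* row (ENSMUSG00000114515, 13 to 34 counts per library) passed it in 1 group.

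Wildtype ICR mice received 1e+11 viral genomes of AAV9 under the skin at postnatal day 6, and the hearts were taken at day 9, which is 3 d later. The virus carried GFP, YAP6SA or YAP5SA behind the cTnT promoter, which drives the cassette in CMs. YAP is the effector of the Hippo pathway. YAP5SA cannot be phosphorylated at its LATS kinase sites, and YAP6SA carries in addition a serine-to-alanine change that blocks its binding to TEAD, the DNA-binding partner of YAP. CM nuclei were bound with an antibody to PCM-1, and their poly-A RNA was sequenced in non-directional libraries. Each virus had 2 libraries, 1 in each of 2 batches, made from 2 hearts per virus. P-values here measure the spread between these libraries. Nuclear RNA was counted, so the values describe transcripts in nuclei and not protein or flux through the pathway.

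Glucose enters CMs through GLUT1, the product of *Slc2a1*, which is the main carrier of the fetal heart, and GLUT4, the insulin-regulated carrier of *Slc2a4* that takes over after birth. Hexokinase traps glucose as glucose-6-phosphate, phosphofructokinase commits it to glycolysis, and pyruvate kinase yields pyruvate, which lactate dehydrogenase interconverts with lactate. Around birth the heart moves from glycolysis and lactate towards fatty acid oxidation, and in that period HK2 and the LDH-B subunit become the main forms in CMs while HK1 and LDH-A are typical of fetal heart and of glycolytic tissue.

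The libraries held 14552847 to 19615627 gene counts. The CM markers were abundant throughout, and their summed level over 8 genes was, in batches 1 and 2, 49540 and 66510 CPM with GFP, 47340 and 60880 CPM in YAP6SA and 41610 and 30350 CPM in YAP5SA. The YAP5SA library of batch 2 therefore had the lowest CM marker level of the 6. The sums of markers of other cells reached at most 1367 CPM (fibroblasts), 308.3 CPM (endothelial cells), 547.5 CPM (mural cells), 104.7 CPM (macrophages) and 64 CPM (erythroid cells). The counts of *Yap1*, 1828 to 2647 per library, did not separate the groups, and whether cassette reads would be counted there is not given in the sources used here, so the table holds no check of the cassette.

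The levels of the 10 genes spanned over 2 orders of magnitude, and only levels per kilobase of annotated exon (RPKM) can be set side by side between genes. The length used here is the union of annotated exons, and the order between genes depends on it. The longest transcript has 1549 bases in place of 2911 for *Aldoa*, and 1304 in place of 1570 for *Ldhb*. With that length *Aldoa* stands above *Ldhb* in both GFP libraries. With the union of exons, *Ldhb* was highest in GFP CMs at 325 ± 49.4 RPKM (mean ± SD, n = 2 libraries). It was followed by *Pfkm* at 315 ± 79.8, and the libraries of the pair overlapped. Next came *Aldoa* (243 ± 1.65 RPKM), *Pkm* (190 ± 20.2), *Hk2* (108 ± 8.66), *Slc2a4* (92.3 ± 12.9), *Ldha* (59.2 ± 4.0), *Pfkp* (22.4 ± 5.07), *Hk1* (16.3 ± 0.768) and *Slc2a1* (1.82 ± 0.814), and no 2 neighbours from *Pfkm* down to *Slc2a1* overlapped. Per kilobase, the adult forms *Slc2a4*, *Hk2*, *Pfkm* and *Ldhb* each stood above the partner of its step in both libraries. In YAP5SA OE CMs, *Aldoa* led with 229 ± 15.1 RPKM, *Ldhb* (196 ± 34.8) overlapped with it, and *Ldha* (89.4 ± 2.02) stood above *Slc2a4* (76.9 ± 13.9) and *Hk2* (63.5 ± 14.8).

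The stretch before the start of a gene is shown for 4 members, the pair that rose in YAP5SA OE CMs (*Slc2a1* and *Ldha*) and for comparison *Hk2* and *Ldhb*, which fell. RefSeq windows of GRCm38.p6 were matched for 9 of the 10 symbols, with no entry for *Slc2a4*, and the part before the annotated exons is printed 5′ to 3′ on the strand of the gene. Capitals mark every complete match, on either strand, to ACGTG or GCGTG (the core of hypoxia response elements), CATTCC (the TEAD motif) or CACGTG (the E-box bound by MYC, which contains ACGTG on both strands). The *Slc2a1* stretch is chr4:119108495-119108710 (plus strand), that of *Ldha* chr7:46845554-46845803 (plus), that of *Hk2* chr6:82774455-82774704 (minus) and that of *Ldhb* chr6:142507958-142508207 (minus).
Slc2a1: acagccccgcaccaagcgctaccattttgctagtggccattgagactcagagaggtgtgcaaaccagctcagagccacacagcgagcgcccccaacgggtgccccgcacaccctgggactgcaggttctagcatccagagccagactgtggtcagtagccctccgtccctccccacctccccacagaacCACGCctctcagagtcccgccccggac
Ldha: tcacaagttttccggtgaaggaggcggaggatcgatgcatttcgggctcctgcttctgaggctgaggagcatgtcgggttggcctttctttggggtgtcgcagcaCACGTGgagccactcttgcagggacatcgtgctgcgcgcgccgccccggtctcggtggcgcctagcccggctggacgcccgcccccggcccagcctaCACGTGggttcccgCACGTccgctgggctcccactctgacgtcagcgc
Hk2: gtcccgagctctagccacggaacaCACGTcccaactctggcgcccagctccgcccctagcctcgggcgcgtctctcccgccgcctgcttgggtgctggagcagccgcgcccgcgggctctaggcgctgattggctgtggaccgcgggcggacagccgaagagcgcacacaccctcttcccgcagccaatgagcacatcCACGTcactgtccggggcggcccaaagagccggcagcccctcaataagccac
Ldhb: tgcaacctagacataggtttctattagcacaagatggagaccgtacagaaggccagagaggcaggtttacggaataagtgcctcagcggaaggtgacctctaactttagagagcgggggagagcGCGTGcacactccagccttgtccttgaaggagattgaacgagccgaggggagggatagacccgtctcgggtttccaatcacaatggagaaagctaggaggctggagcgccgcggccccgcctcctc

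The *Ldha* stretch held 2 copies of CACGTG, which begin at -145 and -48 from the RefSeq start, and a further ACGTG at -34, so that ACGTG matched 5 times counting both strands. It lies upstream of one of the 2 RefSeq starts of *Ldha*, outside annotated exons but inside the longer GENCODE gene. The window of the other start held GCGTG 2 times and neither ACGTG nor CACGTG. *Hk2* held ACGTG at -226 and -52, *Ldhb* held GCGTG at -126, and *Slc2a1* held GCGTG at -61 and an ACGTG that begins at -36, runs into the first GENCODE exon and is therefore cut off at the end of the printed stretch and left in lower case. CATTCC was in none of these 4 windows, and among all windows of the 10 genes it occurred in 1, of *Aldoa*. Of 32851 mouse windows of the same kind, 19.6% held ACGTG, 32.4% GCGTG, 43.8% either of them, 14.7% CATTCC and 7.15% CACGTG. Of the members that fell and are not printed, 1 window of *Pfkm* held CACGTG at -136. For *Hk1*, 1 window held ACGTG 2 times and GCGTG 3 times, and other windows of both genes held fewer matches. The letters were thus not particular to the members that rose. These matches are letters in a window and show no binding.

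To see how the step of glucose entry differed between the groups, the 2 carriers were compared first. Counts of *Slc2a1* in batches 1 and 2 were 160 and 67 with GFP, 133 and 88 in YAP6SA, and 282 and 910 in YAP5SA, which is 8.41 and 4.38, 6.77 and 5.34, and 18.7 and 51.0 CPM. Both YAP5SA libraries lay above all the others, and the batch 2 library was far higher than that of batch 1. The fitted level was 5.24-fold higher in YAP5SA than in GFP CMs, a log2 fold change of 2.39 (standard error [SE] 0.481, edgeR FDR 0.0079, where FDR is the Benjamini-Hochberg adjusted p of edgeR's quasi-likelihood test). The difference was 1.14 within batch 1 and 3.51 within batch 2. Without the YAP5SA library of batch 2 it was 1.30 (edgeR FDR 0.016), and without the GFP library of batch 2 it was 1.62 and no longer past the threshold of 0.05 (edgeR FDR 0.0688). In YAP6SA OE CMs *Slc2a1* overlapped with GFP, at a log2 fold change of -0.10 (SE 0.472, edgeR FDR 0.986).

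*Slc2a4* had 353 and 290 CPM in GFP, 347 and 318 in YAP6SA, and 302 and 233 in YAP5SA. The YAP5SA range overlapped with GFP, and the log2 fold change was -0.27 (SE 0.156, edgeR FDR 0.248), against 0.06 (SE 0.156, edgeR FDR 0.969) in YAP6SA. Per kilobase, *Slc2a1* made up 2.31% and 1.48% of the 2 carriers together in GFP, 1.90% and 1.64% in YAP6SA, and 5.79% and 17.8% in YAP5SA. *Slc2a4* thus stayed the more abundant carrier transcript in each of the 6 libraries. *Slc2a1* is also strong in red cell precursors and in endothelial cells. The erythroid marker sum was 48.7 and 59.5 CPM in GFP and 46.8 and 31.7 in YAP5SA, and the endothelial sum was 274.5 and 231.9 against 298.8 and 247.7 CPM, and neither list had a member past the threshold. The macrophage sum was 55.0 and 77.3 CPM in GFP and 70.2 and 104.7 in YAP5SA, with 1 of the 5 markers tested higher (*C1qa*, 0.96, edgeR FDR 0.0228), and it was highest in the YAP5SA library of batch 2. The mural sum was 458.3 and 533.8 against 398.4 and 321.3 CPM, with 1 gene higher (*Myh11*, 1.00, edgeR FDR 0.0274) and 1 lower (*Abcc9*, -0.81, edgeR FDR 0.0287) of 6. *Abcc9* alone made up 271.8 and 387.2 CPM of that sum in GFP and 215.8 and 155.8 in YAP5SA, so the sum mainly follows this 1 gene. The fibroblast sum was 1030 and 698.3 CPM in GFP and 1113 and 695.2 in YAP5SA. The part of these cells in the *Slc2a1* values was not tested.

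**Figure D1:**
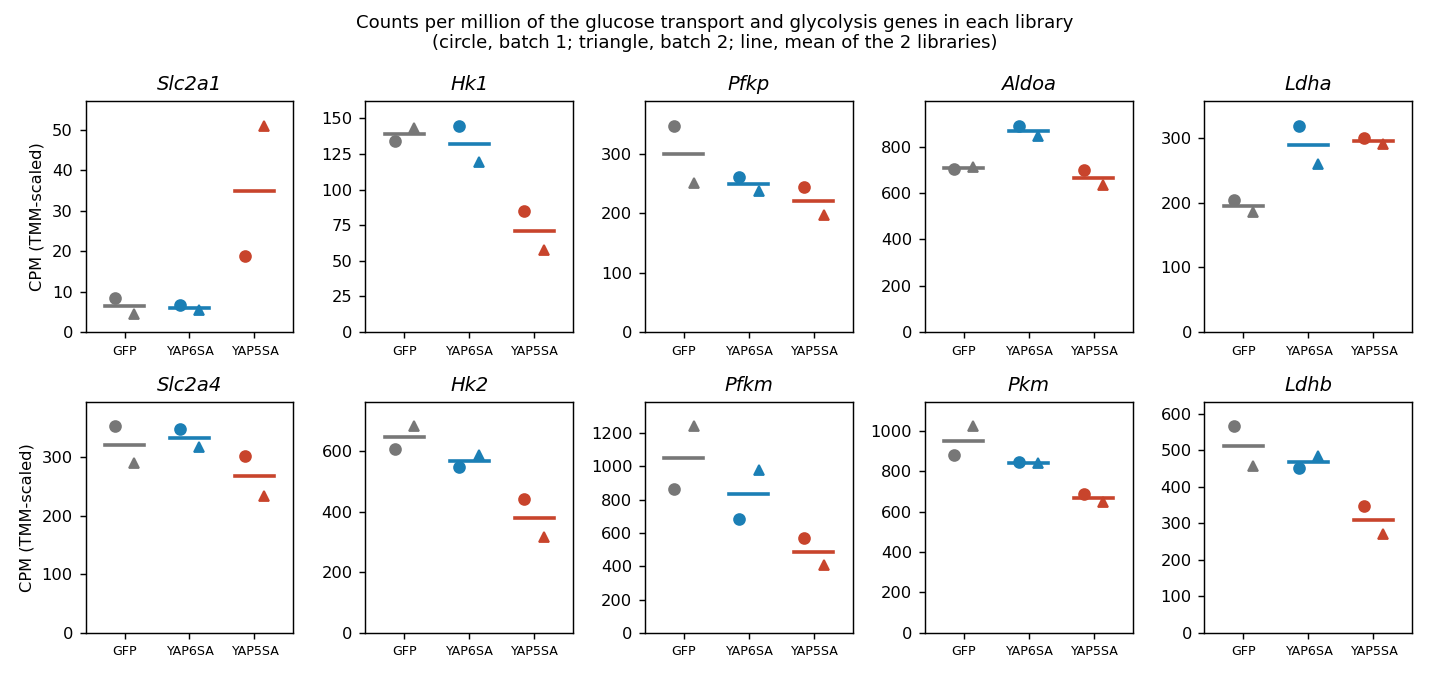
Level of each gene in each library, in CPM (y axis from 0) for GFP, YAP6SA and YAP5SA on the x axis, with circles for batch 1, triangles for batch 2 and a line at the mean of the 2 libraries. *Slc2a1* and *Ldha* are the panels in which both YAP5SA points lie above both GFP points, and in *Ldha* both YAP6SA points do so as well.

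Both hexokinases fell in YAP5SA OE CMs. *Hk1* had 134 and 144 CPM in GFP, 145 and 119 in YAP6SA, and 84.8 and 57.6 in YAP5SA. Its YAP5SA libraries were below all the others, with a log2 fold change against GFP of -0.99 (SE 0.176, edgeR FDR 0.00473), so that it fell by 49.7%. *Hk2*, the main heart form, had 608 and 681 CPM in GFP, 545 and 587 in YAP6SA, and 441.5 and 316.2 in YAP5SA. It also was lowest in both YAP5SA libraries, with a log2 fold change of -0.77 (SE 0.198, edgeR FDR 0.0215). The drop was deeper in batch 2 than in batch 1 for both, at -1.32 and -0.66 for *Hk1* and -1.11 and -0.46 for *Hk2*. Without the GFP library of batch 2, *Hk1* was at -0.73 (edgeR FDR 0.0846) and *Hk2* at -0.60 (edgeR FDR 0.24), and without the YAP5SA library of batch 2 *Hk2* was at -0.46 (edgeR FDR 0.07).

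The balance between the hexokinases moved little. *Hk1* was 13.4% and 12.9% of the pair per kilobase in GFP, 15.7% and 12.5% in YAP6SA, and 11.8% and 11.3% in YAP5SA. The share of the fetal form was thus not higher in YAP5SA, and the log2 ratio *Hk1*/*Hk2* differed from GFP by -0.20 and -0.21 within the 2 batches. In YAP6SA OE CMs neither gene passed the test, with log2 fold changes of -0.09 for *Hk1* (edgeR FDR 0.955) and -0.19 for *Hk2* (edgeR FDR 0.929).

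*Pfkm*, the muscle phosphofructokinase, had 864 and 1241 CPM in GFP, 687 and 980.5 in YAP6SA, and 569 and 408 in YAP5SA. Its YAP5SA libraries lay below all the others, although the 2 GFP libraries were far apart. The log2 fold change in YAP5SA was -1.07 (SE 0.254, edgeR FDR 0.0154), with -0.60 within batch 1 and -1.60 within batch 2. It was -0.83 (edgeR FDR 0.146) without the GFP library of batch 2 and -0.59 (edgeR FDR 0.0222) without the YAP5SA library of batch 2. In YAP6SA it was -0.34 (SE 0.249, edgeR FDR 0.907). *Pfkp*, the platelet form, had 348 and 252 CPM in GFP, 262 and 238 in YAP6SA, and 244 and 196 in YAP5SA. The YAP5SA libraries were below both GFP libraries, but the log2 fold change of -0.44 (SE 0.157, edgeR FDR 0.0722) missed the threshold.

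With the liver form *Pfkl* counted in, *Pfkp* was 8.19% and 4.33% of the phosphofructokinase transcripts per kilobase in GFP and 8.29% and 8.61% in YAP5SA, a difference that shows in batch 2 alone. *Pfkl* was 10.2% in both GFP libraries, 14.3% and 11.9% in YAP6SA, and 14.1% and 19.7% in YAP5SA. The exons of *Pfkp* share 748 bases with *Pitrm1* on the opposite strand, and the libraries keep no strand. Reads that overlap more than 1 gene are listed apart in the table as ambiguous. The total of *Pitrm1* reached 28.4% of that of *Pfkp* in 1 library.

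*Aldoa*, which splits fructose-1,6-bisphosphate, had 705 and 712 CPM in GFP, 891 and 846 in YAP6SA, and 697.5 and 635.5 in YAP5SA. Its YAP6SA libraries were the highest of the 6, and yet the log2 fold change of 0.29 (SE 0.169, edgeR FDR 0.871) did not pass the test. In YAP5SA it was -0.09 (SE 0.169, edgeR FDR 0.742), with levels near those of GFP. The second Ensembl gene of that name, at 0.849 to 2.25 CPM, had few counts and gave a log2 fold change of 0.60 (SE 0.564, edgeR FDR 0.476) in YAP5SA.

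*Pkm*, which makes pyruvate, had 878 and 1021 CPM in GFP, 842.5 and 839.9 in YAP6SA, and 687 and 646 in YAP5SA. Both YAP5SA libraries were below all the others. The log2 fold change of -0.51 (SE 0.177, edgeR FDR 0.0669) missed the threshold, which it passed in 4 of 9 other settings of the test. Counts per gene cannot separate the adult-type transcript M1 from the fetal-type M2, which differ by 1 exon. *Pkm* exons share 767 bases with *Gm49759* on the same strand, and the total of that gene was at most 5.86% of that of *Pkm*.

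At the last step the fetal and the adult form moved in opposite directions in YAP5SA OE CMs. *Ldha* had 205 and 187 CPM in GFP, 320 and 260 in YAP6SA, and 301 and 291 in YAP5SA. The 4 libraries of both YAP variants lay above both GFP libraries. The log2 fold change was 0.60 (SE 0.154, edgeR FDR 0.022) in YAP5SA, a level 51.4% higher, with 0.55 and 0.64 within the batches. In YAP6SA it was 0.56 (SE 0.154), with 0.64 and 0.48 within the batches, and this did not pass the threshold over all genes (unadjusted p 0.00463, edgeR FDR 0.504). The annotation names 2 pseudogenes of *Ldha*, and reads that map to several places were not counted.

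*Ldhb* had 565 and 455 CPM in GFP, 452 and 485 in YAP6SA, and 346.5 and 269.3 in YAP5SA. It was lowest in both YAP5SA libraries, with a log2 fold change of -0.73 (SE 0.177, edgeR FDR 0.0173) and nearly the same difference within the batches, -0.71 and -0.76. In YAP6SA it was -0.11 (SE 0.177, edgeR FDR 0.947). The *Ldha* share of the 2 subunits per kilobase was 14.7% and 16.3% in GFP, 25.1% and 20.3% in YAP6SA, and 29.2% and 33.9% in YAP5SA. The 3 groups did not overlap in this share, although *Ldhb* remained the larger part in each library. Without a batch term *Ldha* in YAP5SA reached an edgeR FDR of 0.0547. Its edgeR FDR was 0.14, 0.193 and 0.0512 without the GFP library of batch 1, that of batch 2 and the YAP6SA library of batch 2, at log2 fold changes of 0.59, 0.62 and 0.60. *Ldhb* was at -0.63 (edgeR FDR 0.142) and -0.82 (edgeR FDR 0.0869) without the GFP library of batch 1 or 2.

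**Figure D2:**
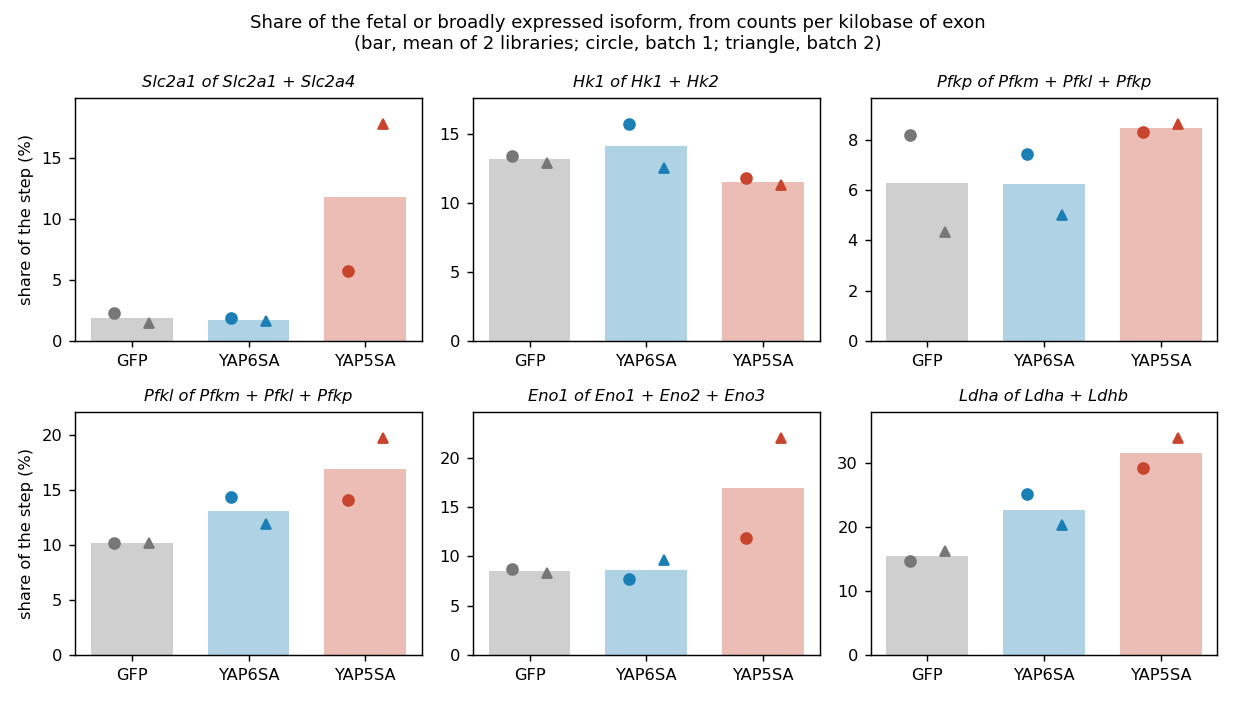
Share of 6 fetal or broadly expressed isoforms in the transcripts of their step, in percent of the summed counts per kilobase of exon (y axis from 0), by group on the x axis, with bars at the mean of 2 libraries, circles for batch 1 and triangles for batch 2. The *Ldha* share runs from 14.7% and 16.3% in GFP to 29.2% and 33.9% in YAP5SA, while the *Hk1* share is 11.8% and 11.3% in YAP5SA against 13.4% and 12.9% in GFP.

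Over the step pairs, the log2 ratio of the fetal or broad form to the adult form was -5.73 in GFP and -3.11 in YAP5SA for *Slc2a1*/*Slc2a4*, and -2.45 and -1.12 for *Ldha*/*Ldhb*. It was -3.81 and -3.14 for *Pfkp*/*Pfkm*, and -2.73 and -2.93 for *Hk1*/*Hk2*. In YAP6SA these ratios were -5.80, -1.78, -3.72 and -2.62 in the same order. The YAP6SA value stood apart from GFP in both batches for *Ldha*/*Ldhb*, by 0.96 and 0.39, and went in opposite directions in the 2 batches for the other 3 pairs. YAP5SA exceeded GFP in both batches for *Slc2a1*/*Slc2a4* (1.38 and 3.86), *Ldha*/*Ldhb* (1.26 and 1.40) and *Pfkp*/*Pfkm* (0.09 and 1.25). These ratios are a description, with no test.

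Counted over the members, YAP6SA OE CMs had 0 of 11 rows past the threshold against GFP, beside 0.045% of all genes kept. At an unadjusted p under 0.05, 1 row (*Ldha*) passed, beside 5.93% of all genes. A fit of the 4 GFP and YAP6SA libraries alone called *Ldha*, at a log2 fold change of 0.57 (edgeR FDR 0.0121), beside 2.07% of all genes. Leaving out either YAP5SA library from the joint fit did so too (edgeR FDR 0.0225 and 0.0224), and the cause of this change was not tested. DESeq2, limma-voom and edgeR's likelihood ratio test on the 6 libraries called 0 of the 11. The libraries of YAP6SA and GFP did not overlap for 4 rows (*Ldha* and *Aldoa* higher, *Hk2* and *Pkm* lower), beside 34.3% of all genes, 17.3% higher and 17% lower.

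Against GFP, YAP5SA OE CMs had 6 of 11 rows past the threshold, 2 higher (*Slc2a1* and *Ldha*) and 4 lower (*Hk1*, *Hk2*, *Pfkm* and *Ldhb*), beside 22% of all genes, 12.8% higher and 9.18% lower. The median log2 fold change over the 11 rows was -0.44, against -0.00314 over all genes kept. The YAP5SA and GFP libraries did not overlap for 9 rows, 2 higher and 7 lower, beside 60.9% of all genes, 31.2% higher and 29.7% lower. Together the 11 rows took 0.472% and 0.467% of all gene counts in GFP, 0.451% and 0.449% in YAP6SA, and 0.383% and 0.322% in YAP5SA. The CM marker genes were lower as well, with 2 of 8 past the threshold (*Pln* at -1.04 and *Ryr2* at -0.81) and a median of -0.76. Their part in the lower values of the glycolytic genes was not tested, and in RNA of pooled nuclei fewer CM nuclei cannot be told apart from less RNA per nucleus. With each library left out in turn, the 6 rows past the threshold kept their direction. *Slc2a1* ran from 1.30 to 3.37, *Ldha* from 0.523 to 0.693, *Hk1* from -1.24 to -0.732 and *Hk2* from -1.08 to -0.462. *Pfkm* ran from -1.59 to -0.591 and *Ldhb* from -0.855 to -0.593. Calls were fewest without the GFP library of batch 2, among these rows and among all genes alike. Both comparisons use the same GFP libraries, so they are not independent of each other.

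**Figure D3:**
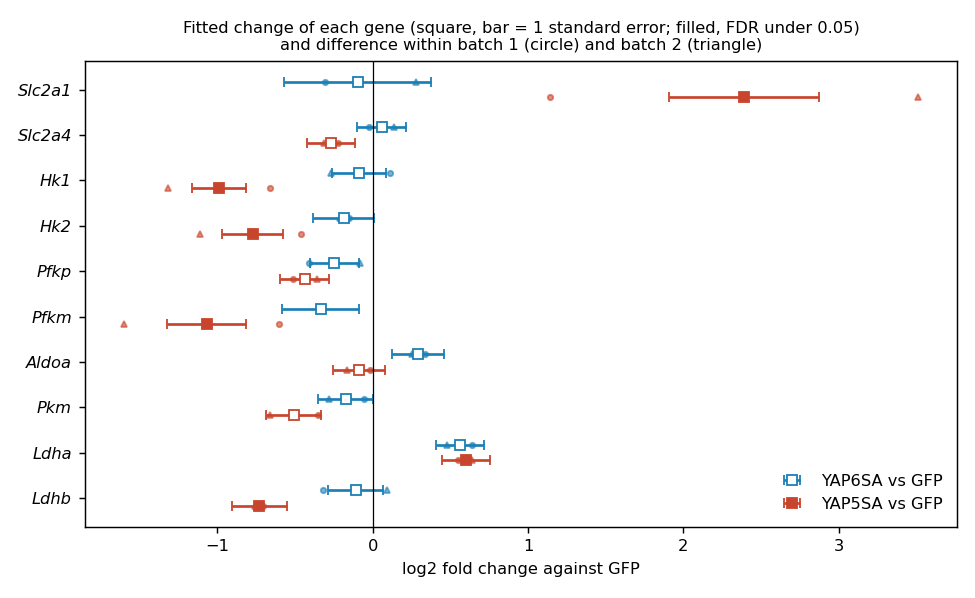
Fitted log2 fold change against GFP (x axis) of the 10 genes for YAP6SA (blue) and YAP5SA (red), as squares with bars of 1 standard error, filled where the edgeR FDR is under 0.05, with the difference within batch 1 (small circle) and batch 2 (small triangle). The red filled squares run from -1.07 (*Pfkm*) to 2.39 (*Slc2a1*), and *Ldha* has its blue and red squares side by side at 0.56 and 0.60.

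The YAP variants were then compared with each other, which is the test of whether their effects differ. Here 3 of 11 rows passed, beside 14.7% of all genes, 9% higher and 5.68% lower. *Slc2a1* was higher in YAP5SA, by a log2 fold change of 2.49 (SE 0.476, edgeR FDR 0.00887). *Hk1* (-0.90, SE 0.175, edgeR FDR 0.00936) and *Ldhb* (-0.62, SE 0.178, edgeR FDR 0.0433) were lower. *Hk2* (-0.59, edgeR FDR 0.0755) and *Pfkm* (-0.74, edgeR FDR 0.0783) missed the threshold. *Ldha* was at nearly the same level in both variants, with a difference of 0.04 (SE 0.154, edgeR FDR 0.897). The libraries did not overlap for 8 rows, 1 higher and 7 lower, beside 57.6% of all genes, 28.6% higher and 28.9% lower.

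These direct differences rest on few libraries. Without the YAP6SA library of batch 2, *Slc2a1* was at 2.12, *Hk1* at -0.93 and *Ldhb* at -0.40. Fewer of all genes passed in that fit, so the loss of these calls there is not particular to the members. Without the YAP5SA library of batch 2, *Slc2a1* was at 1.33 (edgeR FDR 0.0215). *Ldhb* passed in 1 of the 6 fits that leave out a library, with an edgeR FDR of 0.063, 0.0615, 0.0863 and 0.111 without the GFP library of batch 1 or 2, the YAP6SA library of batch 1 and the YAP5SA library of batch 2. It also did not pass without a batch term (edgeR FDR 0.098) or in the fit of the 4 libraries (edgeR FDR 0.0646).

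**Figure D4:**
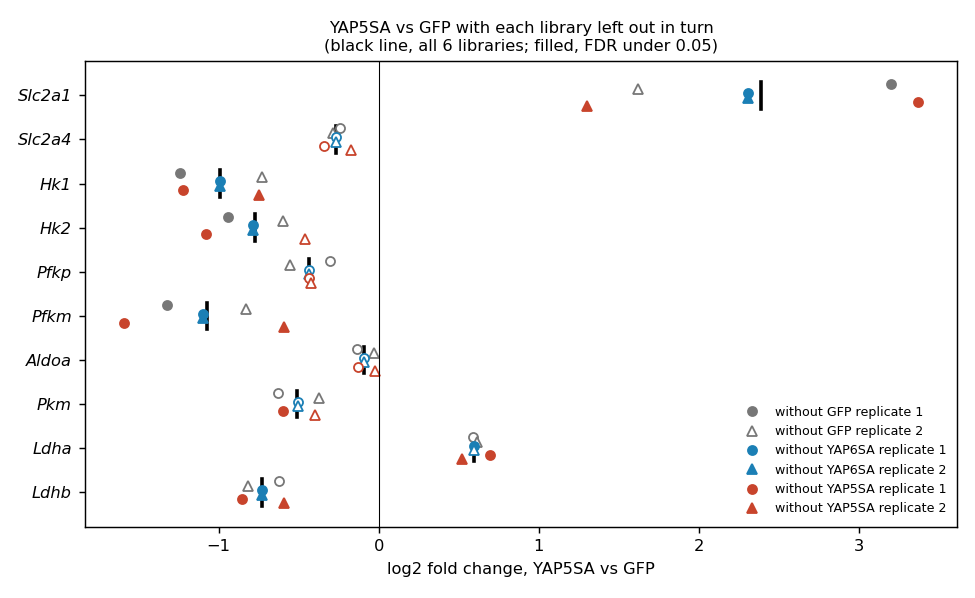
Log2 fold change of each gene in YAP5SA against GFP (x axis) in 6 fits that each leave out 1 library, with a black line at the value from all 6 libraries, colours and shapes for the library left out, and filled points where the edgeR FDR is under 0.05. No point crosses 0. Without the GFP library of batch 2 (grey triangles, all open), fewer of all genes passed as well.

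The rest of the pathway was described by 9 lists with 95 genes, of which 85 passed the filter. In YAP5SA OE CMs, 10 were higher and 17 lower than in GFP, or 31.8% beside 22% of all genes. Among fits that leave out 1 library, calls were fewest without the GFP library of batch 2 and most without the YAP5SA library of batch 1. The same was true of calls over all genes. In YAP6SA OE CMs 0 of 85 passed in edgeR's quasi-likelihood test, beside 0.045% of all genes. In the same test 11 of the 85 had an unadjusted p under 0.05, beside 5.93% of all genes. In YAP5SA against YAP6SA, 5 were higher and 19 lower, or 28.2% beside 14.7%.

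Among the other glycolytic enzymes, 2 of 15 were higher and 3 lower in YAP5SA, or 33.3% beside 22% of all genes (12.8% higher and 9.18% lower). *Pgk1*, the first ATP-yielding step, rose from 43.9 and 41.9 CPM to 73.7 and 70.2 (0.75, edgeR FDR 0.0112). It had 75.6 and 55.7 CPM in YAP6SA, where it did not pass (0.60, edgeR FDR 0.497). *Eno3*, the muscle enolase, fell by 0.95 on the log2 scale (edgeR FDR 0.0158), and with it the share of *Eno1*, the fetal and ubiquitous form, was 8.69% and 8.27% in GFP and 11.9% and 22% in YAP5SA. *Aldoc*, the brain aldolase, had 19 and 8 counts in GFP and 67 and 72 in YAP5SA. It passed the filter through YAP5SA alone, the group in which it is high, so its place among the 2 higher enzymes supports nothing. *Ldhd*, the mitochondrial D-lactate dehydrogenase, had 20.4 and 27.1 CPM in GFP and 12.9 and 4.54 in YAP5SA (-1.54, edgeR FDR 0.0201).

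**Figure D5:**
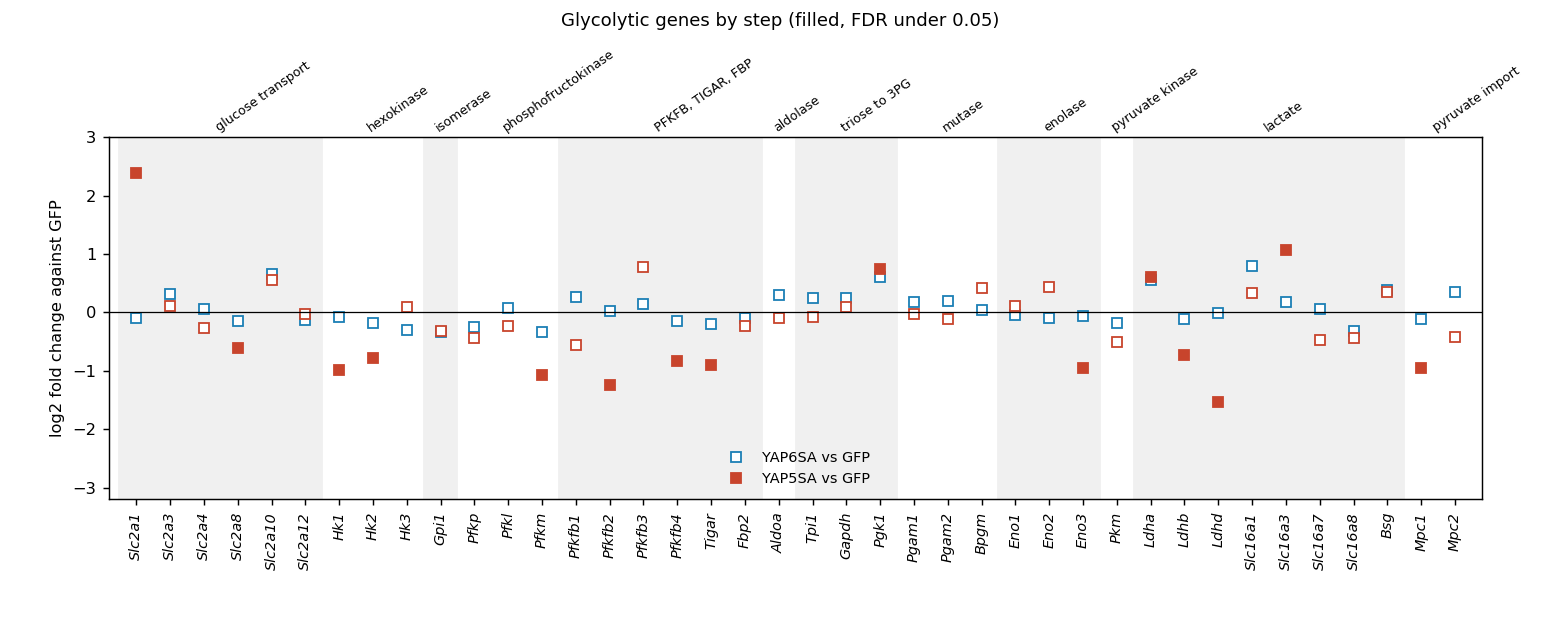
Log2 fold change against GFP (y axis) of the members and of 4 lists (glucose transporters, glycolytic enzymes, fructose bisphosphate enzymes, lactate and pyruvate carriers), all past the filter and with 2 enzymes not drawn (1 of them *Aldoc*), ordered along the x axis by step from glucose transport to pyruvate import, for YAP6SA (blue) and YAP5SA (red), filled where the edgeR FDR is under 0.05. The filled points are all red, with *Slc2a1* (2.39) at the top and *Ldhd* (-1.54) at the bottom.

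Around phosphofructokinase, 3 of 6 genes that set or use fructose bisphosphates fell in YAP5SA, or 50% beside 22% of all genes, and 0 of 6 rose past the threshold (edgeR quasi-likelihood test). Of the 5 with an unadjusted p under 0.05, *Pfkfb3*, named after its values were seen, was on the higher side, with 10.1 and 8.10 CPM in GFP and 12.3 and 19.5 in YAP5SA (0.78, edgeR FDR 0.08). *Tigar*, a fructose-2,6-bisphosphatase, was at -0.90 (edgeR FDR 0.00395), *Pfkfb2*, the heart enzyme that makes fructose-2,6-bisphosphate, at -1.25 (edgeR FDR 0.00423), and *Pfkfb4* at -0.84 (edgeR FDR 0.0121). *Pfkfb2* and *Tigar* were also lower than in YAP6SA (-1.28, edgeR FDR 0.00475, and -0.70, edgeR FDR 0.0149). Of 4 other glucose transporters, 1 fell, or 25% called beside 22% of all genes. This was *Slc2a8*, an intracellular carrier (-0.60, edgeR FDR 0.0304). Of 8 genes for GLUT4 vesicle traffic, 25% were called, which is also near the 22% of all genes. *Tbc1d1* rose (0.57, edgeR FDR 0.0357) and *Tbc1d4* fell (-0.83, edgeR FDR 0.0494), and both encode Rab GTPase-activating proteins that hold GLUT4 vesicles back. Neither passed when only the 4 libraries of YAP5SA and GFP were fitted (edgeR FDR 0.0656 and 0.0608), and *Tbc1d4* differed by -0.18 within batch 1 and -1.47 within batch 2.

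For the products of the pathway, 7 carriers of lactate and pyruvate passed the filter. In YAP5SA against GFP 28.6% of them were called, beside 22% of all genes. *Slc16a3* (MCT4), which exports lactate, rose in YAP5SA from 9.10 and 5.55 CPM to 14.1 and 15.3 (1.07, edgeR FDR 0.0398). *Mpc1*, a subunit of the carrier that takes pyruvate into mitochondria, fell (-0.95, edgeR FDR 0.0153). Its partner *Mpc2* fell against YAP6SA (-0.77, edgeR FDR 0.00727) and was at -0.42 against GFP (edgeR FDR 0.0577). *Slc16a1* (MCT1), singled out after its values were seen, had 76.7 and 64.6 CPM in GFP and 124 and 121 in YAP6SA (0.80, edgeR FDR 0.225, and 0.000477 when only these 2 groups were fitted), and 107 and 73.1 in YAP5SA.

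Of 16 genes of glycogen metabolism, 1 rose and 4 fell in YAP5SA, or 31.2% beside 22% of all genes. *Gyg*, glycogenin, which primes glycogen, rose from 46.0 and 43.0 CPM to 135 and 165 (1.74, edgeR FDR 0.000229). Glycogen synthase *Gys1* (-1.07, edgeR FDR 0.00187), the phosphorylase *Pygm* (-1.16, edgeR FDR 0.00548) and the phosphorylase kinase subunit *Phka1* (-0.75, edgeR FDR 0.00658) fell. In the pentose phosphate pathway, 1 of 9 genes (11.1%) fell in YAP5SA, beside 22% of all genes called (9.18% lower). This was the transketolase *Tkt* (-0.86, edgeR FDR 0.00622). None of the 9 passed in YAP6SA (edgeR quasi-likelihood test), beside 0.045% of all genes, and their lowest FDR was 0.908. In the same test 0 of the 9 had an unadjusted p under 0.05, beside 5.93% of all genes. With so few calls over all genes, this says little about these 9 genes.

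Of 15 regulators of glucose metabolism genes, 2 rose and 3 fell in YAP5SA, or 33.3% beside 22% of all genes. *Mlxipl* (ChREBP), a glucose-sensing factor, fell from 260 and 257 CPM to 102.5 and 56.9 (-1.73, edgeR FDR 0.00103). *Myc* rose (1.48, edgeR FDR 0.0172), by 0.54 within batch 1 and 2.40 within batch 2, a spread like that of *Slc2a1*. *Txnip*, a brake on glucose uptake, fell (-1.30, edgeR FDR 0.0288), by -2.05 within batch 1 and -0.41 within batch 2. *Egln3*, a prolyl hydroxylase that responds to hypoxia, rose (0.63, edgeR FDR 0.0303), while *Epas1* (HIF-2α), a hypoxia-inducible factor, fell (-0.72, edgeR FDR 0.0394). When only the GFP and YAP5SA libraries were fitted, *Egln3* and *Epas1* did not pass (edgeR FDR 0.0683 and 0.0519). *Egln3* was also above GFP in both YAP6SA libraries, at 42.5 and 36.9 CPM against 23.3 and 22.3 (0.80, edgeR FDR 0.309). The 2 YAP variants differed in it by -0.17 (edgeR FDR 0.549). Of 5 factors that act on *Pkm* splicing, 3 rose in YAP5SA, or 60% beside 22% of all genes (12.8% higher), and 0 fell (edgeR quasi-likelihood test; 4 had an unadjusted p under 0.05). These were *Ptbp1* (1.01, edgeR FDR 0.00559), *Ptbp2* (0.76, edgeR FDR 0.0121) and *Hnrnpa1* (0.56, edgeR FDR 0.0264, and 0.0502 in the fit of these 2 groups). PTBP1 and hnRNPA1 favour the M2 form, which the counts cannot show.

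The genes whose profile over the 6 libraries was most like that of *Slc2a1* were *Txndc5*, *2010110K18Rik* and *Lox*, with a root mean square difference of centred log2 CPM of 0.155, 0.16 and 0.172 among 13322 genes. *Txndc5* had 747 and 406 counts in GFP and 1799 and 4464 in YAP5SA. The nearest to *Slc2a4* were *Ttbk2* (0.0267), *Rfx1* (0.0278) and *Camk2d* (0.0342). With 6 libraries many genes lie close to any one profile, and the closeness is a description.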

How the data were processed

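Raw read counts per Ensembl gene for 6 libraries were used as deposited. Per the labels and the study's methods, STAR was used by the authors for mapping to mm10 (GRCm38), and versions are not given in the sources used here. Unmapped, multimapping (2.9% to 4.19% of reads), ambiguous (5.79% to 6.31%) and intergenic reads (9.43% to 9.84%) were listed apart and left out. Symbols, exon lengths and overlaps came from GENCODE M21, and promoter windows from RefSeq. Genes with a median log2 CPM over 1 in at least 1 group were kept. Counts were fitted with edgeR 4.0.16 in R 4.3.3 (TMM, quasi-likelihood test, 1 model of 6 libraries with group and batch), adjusted by Benjamini-Hochberg over 13323 genes at a threshold of 0.05. The SE is the log2 fold change divided by the root of F, and log2 CPM used a prior count of 2. CPM are scaled with TMM. The script was tested on simulated data.

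The members and lists were chosen with earlier results of these data known. All members are named, and from the other lists those called in at least 1 comparison, with examples by smallest FDR, and the 3 genes nearest to *Slc2a1* and to *Slc2a4*. The values of 1 listed enzyme are not reported here, although it is in the counts of its list. The batch number is the replicate number in the labels. Deviations of libraries of a batch correlated at 0.368 between GFP and YAP6SA, but only weakly between GFP and YAP5SA (0.0985) and between YAP6SA and YAP5SA (0.175). Replicates differed more than sampling noise. Alternatives were RLE and upper quartile scaling, no filter, at least 10 counts in every library, the likelihood ratio test, DESeq2 1.42.0, limma-voom (limma 3.58.1), no batch term, 4-library fits, a threshold of 0.01, each library left out and another gene length. Counts at this depth allow 3 counts (0.153 to 0.199 CPM) where 0 is listed, for counting error only.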

Additional observations from a re-analysis of the deposited data

Results flagged for a closer look

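3 genes differed between the YAP variants in the direct test of YAP5SA against YAP6SA (edgeR quasi-likelihood test). *Slc2a1*, the fetal glucose carrier, was higher in YAP5SA OE CMs by 2.49 on the log2 scale (edgeR FDR 0.00887), with 1.45 within batch 1 and 3.23 within batch 2. *Hk1* was lower, at -0.904 (edgeR FDR 0.00936), and *Ldhb* at -0.62 (edgeR FDR 0.0433). With the YAP6SA library of batch 2 left out, the 3 genes were at 2.12, -0.93 and -0.40. Each lost its call in that fit, in which fewer of all genes passed as well.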

How the results depend on the processing

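The test has 2 libraries per group, and leaving one out assumes that the lone library varies like the others. Over such fits the members called ran from 0 to 1 in YAP6SA against GFP, 0 to 7 in YAP5SA against GFP and 0 to 5 in YAP5SA against YAP6SA, and the other pathway genes called from 0 to 5, 7 to 42 and 5 to 34. Calls over all genes also differed widely between these fits, so the ranges are not particular to the members or the other pathway genes. Over all genes, both comparisons with YAP5SA had most calls without the YAP5SA library of batch 1. They had fewest without the batch 2 library of the group that YAP5SA was compared with. Ratios in GFP ran from -6.06 to -5.40 (*Slc2a1*/*Slc2a4*), -2.76 to -2.69 (*Hk1*/*Hk2*), -4.30 to -3.32 (*Pfkp*/*Pfkm*) and -2.54 to -2.36 (*Ldha*/*Ldhb*). Differences from GFP in the same order ran from -0.40 to 0.26, -0.09 to 0.30, -0.41 to 0.58 and 0.47 to 0.88 in YAP6SA, and 1.71 to 3.53, -0.25 to -0.17, 0.17 to 1.16 and 1.17 to 1.49 in YAP5SA. Member fold changes turned sign in 10 of these fits, none of them past the threshold. In YAP6SA against GFP their ranges were -0.731 to 0.836 (*Slc2a1*), -0.0438 to 0.156 (*Slc2a4*), -0.336 to 0.18 (*Hk1*), -0.336 to 0.103 (*Ldhb*) and -0.31 to 1.08 (ENSMUSG00000114515), and in YAP5SA against YAP6SA -0.0661 to 0.143 (*Ldha*) and -0.431 to 0.963 (ENSMUSG00000114515).

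In YAP6SA against GFP, the fit of 4 libraries called 1 member and 6 other pathway genes, and no filter, the likelihood ratio test and DESeq2 called 3, 2 and 1 of the latter. Over all genes these settings called 198, 109, 54 and 40 higher and 78, 36, 28 and 15 lower, beside 6 and 0 in the main fit. In YAP5SA against YAP6SA, no filter, the likelihood ratio test and DESeq2 called 5 members each. Over all genes they called 1591, 1608 and 1227 higher and 1161, 1155 and 849 lower, beside 1199 and 757 in the main fit. A threshold of 0.01 left 2 members and 10 other genes in YAP5SA against GFP, with 803 of all genes higher and 314 lower in place of 1708 and 1223. It left 6 other genes in YAP5SA against YAP6SA, with 537 of all genes higher and 123 lower. Without the replicate block, 12 other genes were called in YAP5SA against YAP6SA in place of 24, with 851 of all genes higher and 301 lower. *Ldha* (YAP5SA against GFP, edgeR FDR 0.0547) and *Ldhb* (YAP5SA against YAP6SA, edgeR FDR 0.098) then lost their call, and no other member call changed. The causes were not tested. With the longest transcript as gene length, the GFP ratio was -1.85 for *Hk1*/*Hk2* and also for *Ldha*/*Ldhb*. Under the alternatives, 448 member fold changes kept direction and side of the threshold, 17 newly passed it and 20 no longer did.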

Other observations

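The batch term of the joint fit was not past the threshold for any of the 11 rows (edgeR quasi-likelihood test), with values between -0.31 (*Pfkp*, edgeR FDR 0.384) and 0.19 (*Pfkm*, edgeR FDR 0.768) on the log2 scale, batch 2 minus batch 1. Within the YAP5SA group, *Slc2a1* was 1.44 higher in the library of batch 2, while *Hk1*, *Hk2* and *Pfkm* were lower there by -0.56, -0.48 and -0.48. Within GFP, *Pfkm* was 0.52 higher and *Slc2a1* differed by -0.93.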
